A study of Mus musculus with 8 samples.

Results

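Cluster e3 is a group of 236 liver endothelial cells that the authors placed under their sinusoid annotation. Its members were taken as all cells with the number 3 in the deposited multilevel clustering of the endothelial cells. They make up 236 of 1106 endothelial cells in 8 clusters, and of 3491 cells in the series. The animals were adult males and females on a C57BL6 background, partly C57BL6/J and partly heterozygous carriers of a fluorescent reporter (Pdgfrb GFP, Pdgfra H2bGFP, Cspg4 dsRED, Acta2 GFP or Cldn5 GFP). The labels give no treatment. Livers were dissociated with a skeletal muscle kit and collagenase, endothelial cells were sorted on CD31, on VE-cadherin or on the Cldn5 reporter, and each cell was sequenced by Smart-seq2. The male and the female endothelial cells are 1 sample each, the labels do not name the mouse of a cell, and no cell name occurred in both pools (0 shared).

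Liver sinusoidal endothelial cells line the blood channels between the portal tract and the central vein. They are fenestrated, lack a continuous basement membrane and clear macromolecules from blood through scavenger receptors such as the stabilins and the mannose receptor. Along the channel their expression changes gradually: Msr1 and Efnb2 are known to be stronger towards the portal side, Lyve1 along the middle of the sinusoid and low near the central vein, and Kit, Wnt2, Rspo3 and Wnt9b towards the central vein, where secreted Wnt ligands and R-spondin act on hepatocytes.

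The cells of e3 were unevenly spread over plates. Of the 236 cells, 192 (81.4%, exact binomial 95% interval 75.8 to 86.1) lay on the male plate liver_318s and 30 on the male plate liver_319s. The remaining male cells were 4 on liver_128s, 2 on liver_1278s and 1 each on liver_048s and liver_EC_170s, and the female cells were 3 on liver_845s, 2 on liver_061s and 1 on liver_062s. On liver_318s, e3 made up 61.5% of the 312 endothelial cells, beside 49 cells of e1, 38 of e5, 21 of e2 and 7 of e6. On liver_319s its 30 cells stood beside 49 cells of e5. Cells of e8 were almost absent from both plates (1 and 0), so for e3 against e8 the cluster and the plate cannot be told apart. The finer community clustering of the authors left e3 nearly whole, with 235 of its 236 cells in 1 cluster of 238 cells. All intervals below cover counting error only.

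**Figure D1:**
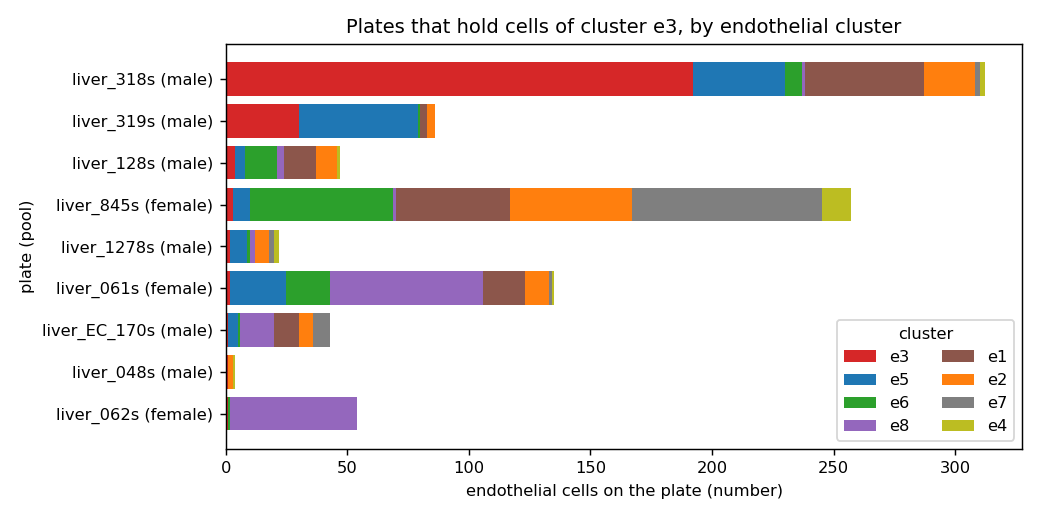
Number of endothelial cells (horizontal axis) on each plate that holds e3 cells (vertical axis, with the pool in brackets), coloured by cluster. Plate liver_318s holds 192 of the 236 e3 cells, and liver_319s holds 30 beside 49 of e5.

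Male e3 cells had a median of 303731 counts (64835 to 633004) and 4610 detected genes, and the 6 female cells 365578 counts and 4771 genes. Medians in the male cells of e5, e6 and e8, the other sinusoidal clusters, were 176891, 282140 and 150633 counts. Over the 4 plates with at least 3 cells on each side, e3 cells held more genes than e5, e6 and e8 cells in 4 of 4 plates, by 512 genes on average, and more counts in 3 of 4 plates. An exact two-sided paired permutation test over these plates gave p = 0.125 for genes (adjusted p = 0.375) and p = 0.375 for counts (adjusted p = 0.562), and 0.125 is the smallest p that 4 plates can give, so the test cannot reach the usual threshold.

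Levels below are in CPM, the counts summed over the cells of a group, without spike-ins, scaled to a total of 1000000. A log2 ratio sets the e3 level against the mean level of e5, e6 and e8, each with equal weight, in the male pool, after adding 1 CPM to both. It was computed for the 11280 genes with at least 5 CPM on average, and a gene was past the fold at a log2 ratio of at least 1 in size. The clusters were made from these same counts and each pool is 1 sample, so these ratios are descriptions without a test.

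The endothelial markers *Pecam1* (861 CPM) and *Cdh5* (561 CPM) were present in male e3, and the sinusoidal genes stood near the levels of e5 and e8. *Stab2*, a hyaluronan scavenger receptor, was at 3210 CPM (counting interval 3196 to 3223) in male e3 and at 2806 CPM in the 6 female cells. On liver_318s it was at 3256 CPM and on liver_319s at 2914 CPM. In male e5 and e8 it reached 3367 and 4548 CPM, and it was at 611 CPM in e6, 279 CPM in the portal-side cluster e2 and 20.3 CPM in the central vein cluster e1. All 230 male e3 cells held a count of *Stab2*, and 99.6% held at least 20 counts. It thus separated e3 from the vein clusters and from e6, and not from e5 or e8. The log2 ratio to the mean of e5, e6 and e8 was 0.18.

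Of the 19 sinusoidal markers, 1 was past the fold higher and 0 lower, against 8.48% and 9.25% of all genes, and their median log2 ratio was 0.15, beside 0.03 for all genes. Against e6 alone the median was 0.82, with 7 of 19 higher and 1 lower (25.2% and 14.5% of all genes). The endocytic mannose receptor *Mrc1* reached 2223 CPM in male e3 cells and 2358 CPM in the female ones. The DNA-degrading enzyme *Dnase1l3* was at 4263 and 4192 CPM, the lectin *Clec4g* at 2619 and 2407 CPM and the Fc receptor *Fcgr2b* at 2922 and 2403 CPM. The marker past the fold was *Bmp2*, a ligand through which sinusoidal cells act on hepatocyte iron sensing, at 1585 CPM in male e3 and 916, 469 and 892 CPM in e5, e6 and e8 (log2 ratio 1.06). In female e3 it was at 500 CPM, below female e5 and e8 at 589 and 894 CPM. Against e5 it was at 1566 and 1160 CPM within liver_318s (log2 ratio 0.43) and at 1883 and 934 CPM within liver_319s (1.01).

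**Figure D2:**
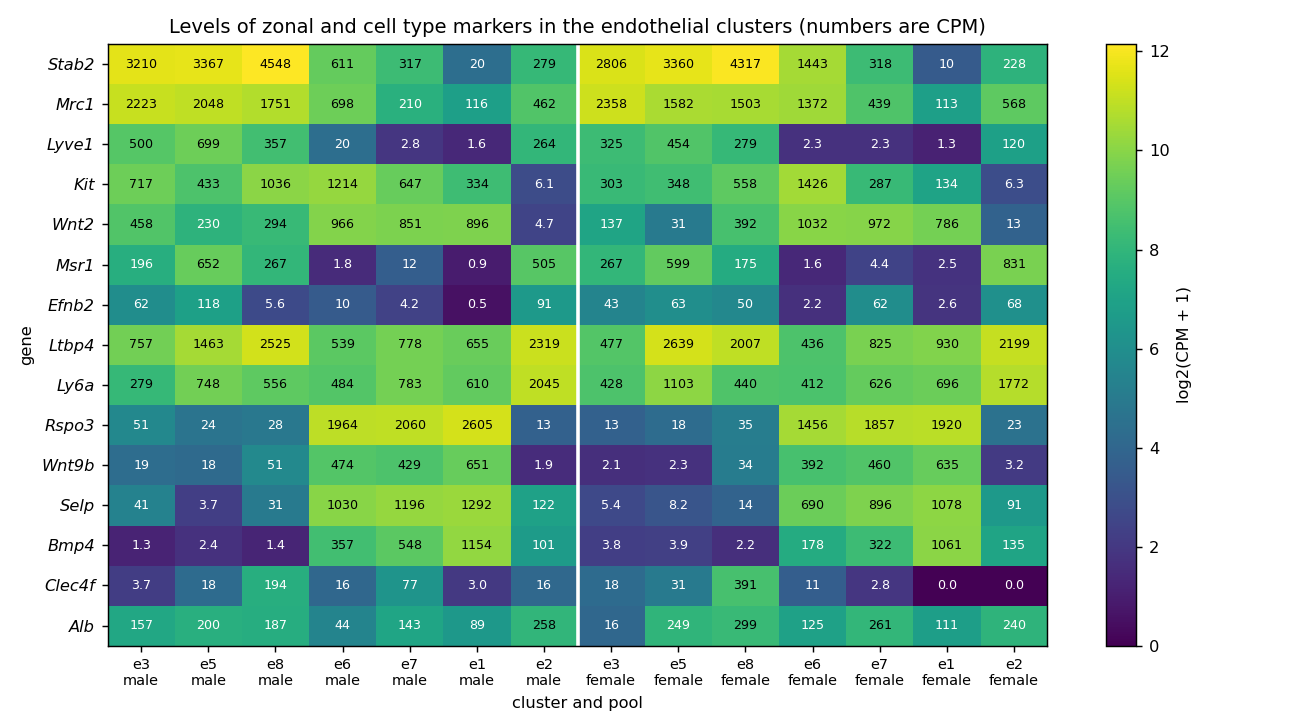
Levels of sinusoidal, zonal and other cell type markers (vertical axis) in 7 endothelial clusters of the male and the female pool (horizontal axis), with the CPM printed in each cell and log2(CPM + 1) as colour. In male cells e3 shares *Stab2* and *Mrc1* with e5 and e8, holds both *Lyve1* (500 CPM) and *Kit* (717 CPM), and has little *Rspo3*, *Selp* or *Bmp4*.

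*Kit*, a receptor tyrosine kinase, and *Lyve1*, a hyaluronan receptor, were both high in e3. *Kit* was at 717 CPM in male e3, between e5 (433 CPM) and e8 or e6 (1036 and 1214 CPM), and at 303 CPM in female e3. *Lyve1* was at 500 CPM in male e3, between e8 (357 CPM) and e5 (699 CPM), and at 325 CPM in female e3. In e6 *Lyve1* was at 19.9 CPM and in e1 at 1.61 CPM, whereas in e2 *Kit* was at 6.08 CPM. Among the clusters compared, e3, e5 and e8 were those with more than 200 CPM of both genes in the male pool. The log2 ratios were -0.32 for *Kit* and 0.48 for *Lyve1*.

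Single cells of e3 differed widely in these genes. Per cell, *Kit* ran from 0 to 3046 CPM with a median of 521 CPM, and *Lyve1* from 0 to 3444 CPM with a median of 122 CPM. At a limit of 20 counts, 78 of 230 male e3 cells held both genes (33.9%, 27.8 to 40.4), 85 held *Kit* only, 42 *Lyve1* only and 25 neither. The share with both was 16.7% (10.5 to 24.6) in male e5, 25.7% (12.5 to 43.3) in male e8, 2.94% in male e6 and 0 of 88 cells in male e1, which allows a share of up to 3.41% by 3 cells and 4.11% by the exact interval. A limit of 1 count was not used for this reading, because by it *Kit* appeared in 42.6% of the male e2 cells although its level there was 6.08 CPM.

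Depth bears on these shares. With cells thinned to 50000 counts, which left out 1 male e5 cell below that depth, 18.7% of 230 male e3 cells (13.9 to 24.3) and 11.8% of 119 male e5 cells (6.58 to 19) held both genes at 20 counts, and the intervals overlapped. Within liver_318s the thinned shares were 17.2% for e3 and 15.8% for e5, and within liver_319s 26.7% and 8.16%. A larger share of e3 cells than e5 cells with both genes was therefore not resolved at equal depth. Over the 192 e3 cells of liver_318s, *Kit* rose and fell with *Wnt2* (Spearman correlation 0.46) and against *Msr1* (-0.39) and *Lyve1* (-0.28). These correlations describe cells of 1 plate, whose total counts ran from 64835 to 633004, and depth was not held equal for them.

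**Figure D3:**
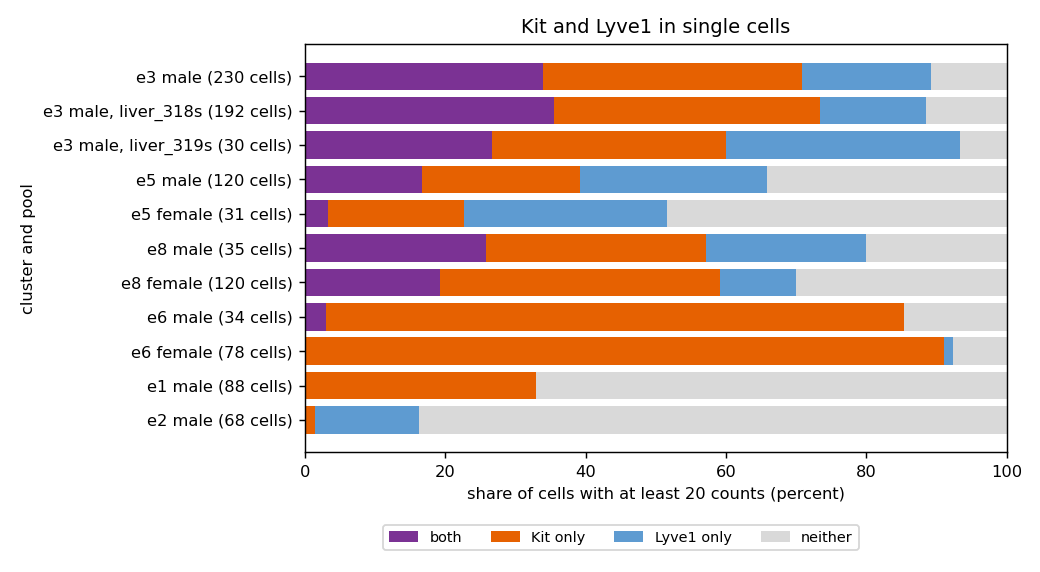
Share of cells in percent (horizontal axis) with at least 20 counts of both *Kit* and *Lyve1*, of *Kit* only, of *Lyve1* only or of neither, by cluster, pool and plate (vertical axis, number of cells in brackets). Male e3 has 33.9% of cells with both, male e6 has 28 of 34 cells with *Kit* only, and male e2 has 57 of 68 cells with neither.

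Central-side genes were low in e3 when set against all other sinusoidal clusters, since e6 carries them. Of 9 listed genes 8 were measured well enough, 5 were past the fold lower and 0 higher (9.25% and 8.48% of all genes), and the median was -2.11. *Rspo3*, the R-spondin that amplifies Wnt signals, was at 50.8 CPM in male e3 and 1964 CPM in e6, and the adhesion receptor *Selp* at 41.4 and 1030 CPM. *Bmp4* was at 1.31 CPM in e3 and 357 CPM in e6. Against e8 alone, however, the median of the list was 0.34, and against e5 and e8 without e6 it was 0.65, so the direction of this list rests on e6.

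The plates that e3 and e5 share allow a closer comparison. Of the 8 central-side genes, 1 was past the fold higher in e3 than in e5 on liver_318s (24.2% of all genes) and 6 on liver_319s (22.1%), with medians of 0.22 and 2.58. On both plates together it was 1 gene, *Selp*, where 7.07% of all genes were higher. *Wnt2*, a Wnt ligand, was at 426 CPM in e3 and 247 CPM in e5 on liver_318s, and at 715 and 256 CPM on liver_319s. *Kit* was at 734 and 556 CPM on liver_318s and at 624 and 233 CPM on liver_319s. *Cdh13*, a cadherin, was at 349 and 191 CPM, and at 350 and 92.4 CPM. The levels of these 3 genes were above those of e5 on each plate, by less than the fold on liver_318s. *Selp* was low in both clusters, at 26.7 against 7.17 CPM and 142 against 1 CPM. *Rspo3* was at 42.5 and 36.6 CPM on liver_318s, an even level, and at 109 and 1.2 CPM on liver_319s.

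Portal-side genes were mixed on liver_318s and mostly lower on liver_319s. Of 13 portal-side genes measured, 4 were past the fold lower in the male pool as a whole (9.25% of all genes, median -0.43). Against e6 alone the list had a median of 1.66, with 8 higher and 0 lower (25.2% and 14.5% of all genes). Against e5, 2 were higher and 4 lower on liver_318s (24.2% and 9.57% of all genes), and 0 were higher and 9 lower on liver_319s (22.1% and 24.2%). The 4 lower on liver_318s were lower on both plates, as were 3.1% of all genes. *Msr1*, a class A scavenger receptor, was at 203 CPM in e3 and 488 CPM in e5 on liver_318s and at 119 and 640 CPM on liver_319s. *Ly6a* was at 287 and 627 CPM and at 238 and 650 CPM. *Ntn4*, a laminin-related protein, was at 32.5 and 96.6 CPM and at 30.5 and 78.9 CPM. *Ltbp4*, which binds latent TGF-beta, stood at 810 and 1489 CPM and at 391 and 1299 CPM, past the fold on liver_319s only. In female e3 the same genes were below female e5, at 267 against 599 CPM for *Msr1* and 428 against 1103 CPM for *Ly6a*. Of the 19 sinusoidal markers, 0 were past the fold between these clusters on liver_318s and 2, both higher in e3, on liver_319s, with a median of -0.12 on each plate.

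Immediate early genes, which encode transcription factors and feedback regulators that cells switch on within minutes of a stimulus, were the list with the largest share of members past the fold between e3 and e5 on the shared plates. Of 17 listed genes, all measured, 10 were past the fold higher than in e5, e6 and e8 and 0 lower (8.48% and 9.25% of all genes), with a median log2 ratio of 1.09. The same 10 were past it within liver_318s and among male cells off that plate, where 2.42% of all genes were higher and 2.59% lower in the whole pool and both strata. In each stratum the comparator cells were pooled, and on liver_318s they were 38 cells of e5, 7 of e6 and 1 of e8. Against e5 on the shared plates, 16 of 17 were past the fold higher on both (7.07% of all genes), with medians of 1.82 on liver_318s and 3.44 on liver_319s.

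*Fos*, a subunit of the AP-1 factor, was at 1506 CPM in e3 and 308 CPM in e5 on liver_318s, and at 2809 and 258 CPM on liver_319s. At 20 counts it was found in 86.5% of e3 and 39.5% of e5 cells on liver_318s and in 93.3% and 28.6% on liver_319s. Its AP-1 partner *Jun* was at 1622 and 522 CPM and at 2230 and 213 CPM, and *Junb* at 1179 and 313 CPM and at 1970 and 159 CPM. The zinc finger factor *Egr1* was at 1031 and 114 CPM and at 1811 and 153 CPM. *Fosb* showed the widest gap, at 234 and 5.93 CPM and at 437 and 3.3 CPM. On both plates e3 was several times above e5 for each of these factors.

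The feedback regulators behaved alike. *Dusp1*, a phosphatase of MAP kinases, was at 1811 CPM in e3 and 772 CPM in e5 on liver_318s and at 3031 and 693 CPM on liver_319s. *Zfp36*, which destabilizes mRNAs with AU-rich elements, was at 1454 and 486 CPM and at 2150 and 170 CPM. *Socs3*, an inhibitor of cytokine receptor signalling, was at 663 and 187 CPM and at 1413 and 32.9 CPM. The gene that missed the fold was *Ier2*, with a log2 ratio of 0.65 on liver_318s and 2.17 on liver_319s. *Myc*, a growth-promoting factor, had the largest ratio of the list in the male pool (2.26), at a low level of 27.3 against 4.92 CPM.

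**Figure D4:**
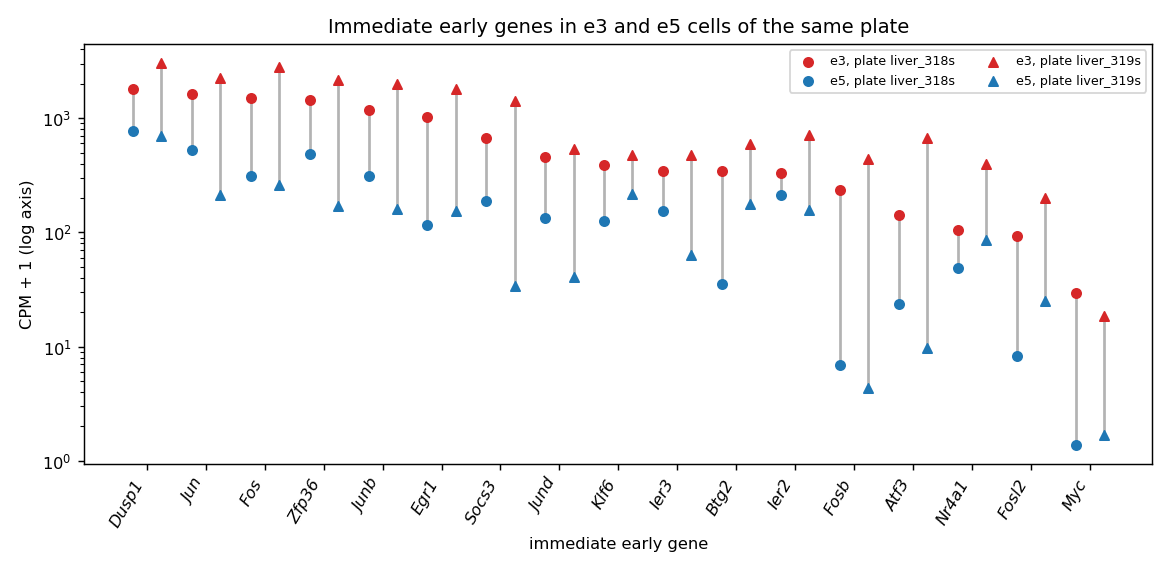
Levels of the 17 immediate early genes (horizontal axis, ordered by the e3 level on liver_318s) in e3 and e5 cells of the same plate, as CPM + 1 on a log axis. Circles are plate liver_318s, triangles plate liver_319s, and grey lines join e3 to e5: every gene is higher in e3 on both plates, by the least for *Ier2* on liver_318s (log2 ratio 0.65).

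The immediate early genes were not particular to e3 among endothelial cells. Summed over the list, immediate early genes were at 12868 CPM in male e3, 10507 CPM in e8, 11444 CPM in e1 and 10578 CPM in e2, but at 6441 CPM in e6, 2556 CPM in e5 and 1110 CPM in e7. The per-cell medians of this sum were 11936 CPM in e3, 11810 CPM in e8 and 11211 CPM in e1. In e2 the median was 2576 CPM, with quartiles of 847 and 14057 CPM, so the e2 level rested on part of its cells. Against e8, 6 of 17 were past the fold higher and 1 lower, when 27.5% of all genes were higher and 13.1% lower, and against e1 5 were higher and 0 lower (23% and 12% of all genes). Against e7, 17 of 17 were higher, when 39.6% of all genes were. *Egr1* and the nuclear receptor *Nr4a1* had lower summed levels in e3 than in male e8, at 1120 against 1437 CPM and 166 against 420 CPM. The per-cell median of *Egr1* had the opposite order, at 668 CPM in male e3 and 447 CPM in male e8. On liver_318s the summed immediate early genes were at 11734 CPM in e3, 12936 CPM in e1 and 14008 CPM in e2, against 6220 CPM in e6 and 3444 CPM in e5. By these summed levels e3 was near the vein clusters on that plate, and e5 was the lowest of these clusters. On liver_128s, with few cells, immediate early genes summed to 14739 CPM in 4 e3 cells, 14865 CPM in 13 e6 cells, 12183 CPM in 3 e8 cells and 1684 CPM in 4 e5 cells.

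**Figure D5:**
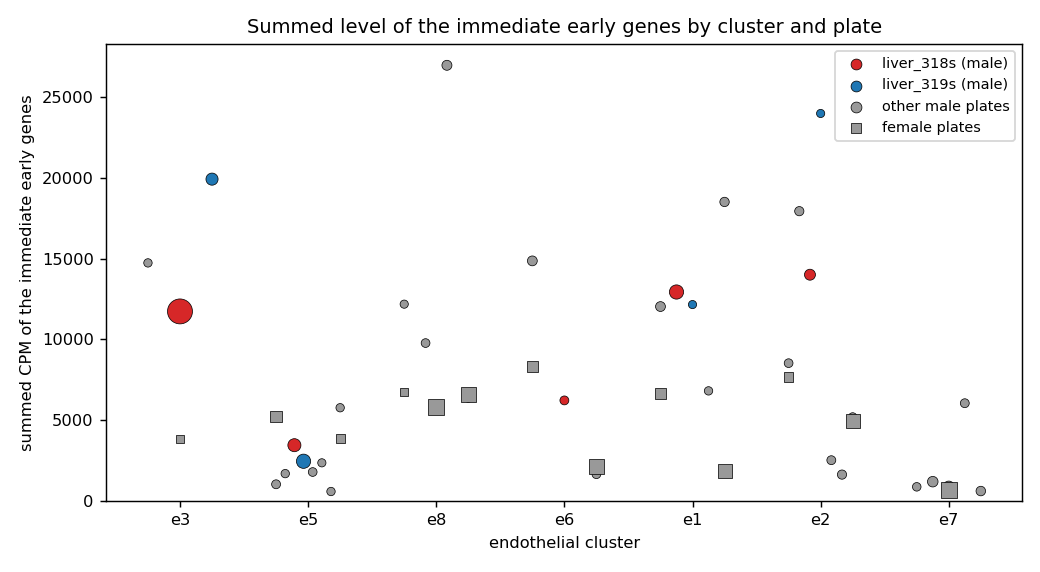
Summed CPM of the immediate early genes (vertical axis) in each endothelial cluster (horizontal axis), with 1 point for each plate with at least 3 cells of that cluster and the point size growing with the number of cells. Red and blue mark plates liver_318s and liver_319s, where e3 lies at 11734 and 19930 CPM and e5 at 3444 and 2450 CPM, and squares mark female plates.

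Immediate early genes also differed by plate outside e3. In the 4 other clusters with at least 5 male cells on and off liver_318s (e1, e2, e5 and e6), immediate early genes were higher on that plate by a median log2 ratio of 0.32 in the mean over clusters, by 0.28 to 0.70 in single clusters, and by 0.74 when e6, with 7 cells on the plate, was left out. Per cell, the summed immediate early genes in e3 ran from 236 to 58255 CPM with a median of 11936 CPM. Within liver_318s the quartiles were 7475 and 15277 CPM in e3 and 1080 and 5728 CPM in e5, so that the middle parts of the ranges did not overlap although the extremes did. Over the e3 cells of liver_318s the sum was only weakly related to total counts (Spearman correlation -0.15) and to detected genes (-0.22). All cells went through enzymatic dissociation and sorting, and the part of these steps in the levels was not tested.

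The promoters of the immediate early genes were searched for short elements that signal-responsive factors are known to bind, and the sequences that held one are shown. In RefSeq windows of 250 bases before to 50 after the start site (build GRCm38.p6), 14 of the 17 genes had an entry, and *Egr1*, *Ier2* and *Myc* had none. Elements outside these windows were not searched for. The cyclic AMP response element TGACGTCA, which reads the same on both strands, was in 2 of the 14 genes (*Btg2* and *Dusp1*), compared with 2.03% of 27025 genes. The AP-1 element TGACTCA, searched on both strands, was in 0 of 14 and in 5.95% of all genes. A CArG box, the core of the serum response element, was in 1 of 14 (*Zfp36*) and in 1.81% of all genes. A match is a description of these letters and not of binding. The 250 bases before each start site follow, 5′ to 3′ on the strand of the gene, with the element in capitals: *Btg2* chr1:134079156-134079405 (minus strand), *Dusp1* chr17:26508473-26508722 (minus strand) and *Zfp36* chr7:28379229-28379478 (minus strand).
Btg2: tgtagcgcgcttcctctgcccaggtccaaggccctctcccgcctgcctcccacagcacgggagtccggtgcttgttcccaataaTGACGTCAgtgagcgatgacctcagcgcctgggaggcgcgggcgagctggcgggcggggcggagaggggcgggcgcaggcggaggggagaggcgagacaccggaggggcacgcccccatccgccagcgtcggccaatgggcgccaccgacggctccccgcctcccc
Dusp1: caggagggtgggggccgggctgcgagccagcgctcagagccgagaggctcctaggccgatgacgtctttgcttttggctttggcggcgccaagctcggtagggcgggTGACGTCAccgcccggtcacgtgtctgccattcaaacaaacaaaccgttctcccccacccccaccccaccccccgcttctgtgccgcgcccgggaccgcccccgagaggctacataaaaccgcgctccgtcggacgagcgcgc
Zfp36: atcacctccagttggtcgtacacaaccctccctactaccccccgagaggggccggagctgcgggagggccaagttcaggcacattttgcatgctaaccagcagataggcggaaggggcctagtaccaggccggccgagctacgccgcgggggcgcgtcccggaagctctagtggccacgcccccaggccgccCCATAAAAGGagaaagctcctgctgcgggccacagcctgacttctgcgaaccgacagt
In *Btg2* the element begins 166 bases and in *Dusp1* 143 bases before the start site, and in *Zfp36* the CArG box begins 58 bases before it. *Btg2*, an antiproliferative regulator, was at 344 CPM in e3 and 34.3 CPM in e5 on liver_318s and at 598 and 175 CPM on liver_319s.

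Across all genes, 956 were past the fold higher in e3 and 1043 lower (689 and 1332 with DESeq2 size factors), but the ratios on and off liver_318s had a Pearson r of 0.01 over the 11280 genes, and the ratios to e5 on the 2 shared plates one of 0.03, or 0.12 over the 4570 genes of at least 50 CPM. Genes are not independent replicates, and these values are descriptions. The genes named next come from those past the fold in the same direction in both strata, 273 higher and 292 lower. With the further demands of 50 CPM and detection by 1 count in 50% of the cells on the higher side, 25 genes were higher, of which 8 belong to the immediate early list, and 0 were lower. The gene with the largest ratio was *Cdkn1a*, the cell cycle inhibitor p21, at 213 CPM in male e3 and 38.9 CPM in e5, e6 and e8 (log2 ratio 2.42, with 1.55 on and 3.52 off liver_318s). On the shared plates it was at 180 against 66.3 CPM and at 442 against 39.1 CPM, and in female e3 at 274 CPM against 62.3 CPM in female e5. The female level rested on 1 cell with at least 20 counts, and the median of the 6 cells was 1.1 CPM. In male e3 the per-cell median was 3.1 CPM with an upper quartile of 211 CPM, so the male level too rested on part of the cells.

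*Cxcl10*, a chemokine for T cells and a known interferon target, was the second, at 616 CPM in male e3 and 78.9, 166 and 132 CPM in e5, e6 and e8. It was at 540 CPM in e3 and 134 CPM in e5 on liver_318s and at 1140 and 80.2 CPM on liver_319s. At 20 counts it was held by 57.3% and 18.4% of the cells on liver_318s and by 60% and 8.16% on liver_319s. In the 6 female e3 cells it was at 808 CPM (768 to 850), above female e5 (41.5 CPM) and e8 (247 CPM), and 4 of the 6 cells held at least 20 counts. *Cxcl10* was thus higher in e3 in both pools. Outside e3 it was also higher on liver_318s than off it, with a plate log2 ratio of 1.94.

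The other genes of this set have varied roles. *Hbegf*, a ligand of the EGF receptor, was at 164 CPM in male e3 and 33.5 CPM in the other sinusoidal clusters, and the flow-responsive factor *Klf4* at 321 and 74 CPM. The per-cell median of *Hbegf* in male e3 was 0.79 CPM, so its level rested on part of the cells. The stress sensor *Gadd45g* was at 473 and 156 CPM, the AP-1 subunit *Jund* at 466 and 117 CPM and the stress-induced factor *Atf3* at 209 and 52.6 CPM. The histone demethylase *Kdm6b* was at 220 and 72.3 CPM, the kinase *Nuak2* at 161 and 50.2 CPM, and *Vav3* at 148 and 43.4 CPM. The ESCRT ATPase *Vps4b* was at 131 and 42.2 CPM, the kinase *Bmp2k* at 91.6 and 33.3 CPM, *Gm11175* at 161 and 40.3 CPM and *1700123O20Rik* at 80.5 and 24.7 CPM. With *Fosb*, at 258 and 77.5 CPM, these are the 15 highest. The log2 ratios of this group ran from 1.43 for *Bmp2k* to 2.26 for *Hbegf*.

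A count chosen after the values were seen, of genes past the fold against e5 on both shared plates with at least 50 CPM and 1 count in 50% of cells on the higher side of each plate, gave 45 genes higher and 4 lower in e3. With no demand on detection and a looser one on level, 167 genes of at least 50 CPM in male e3 were higher and 148 genes of at least 50 CPM in e5 on liver_318s were lower on both plates. Over all genes it was 798 (7.07%) and 350 (3.1%). Beyond those above, the higher genes included *Nfkbiz*, a nuclear regulator of NF-kB (277 against 75.7 CPM on liver_318s, 554 against 22.6 CPM on liver_319s), the interferon regulator *Irf1* (450 against 183 CPM, 769 against 179 CPM) and the kinase *Map3k8* (91.5 against 8.15 CPM, 300 against 48.1 CPM). The 4 lower genes were *Msr1*, *Ly6a*, *Renbp* and *Ogt*.

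Chemokine and cytokine genes were higher in part. Of 13 listed, 9 were measured, 4 were past the fold higher and 1 lower in the male pool (8.48% and 9.25% of all genes), and 3 were higher than in e5 on both shared plates (7.07%). *Cxcl9*, another interferon-induced chemokine, stood at 187 CPM in e3 of the male pool, above e5 (112 CPM), e6 (10.1 CPM) and e8 (127 CPM), and female e3 held 176 CPM. *Il1a*, an inflammatory cytokine, was at 331, 317 and 337 CPM in male e3, e5 and e8 and at 18.2 CPM in female e3. Of 10 heat shock genes, 2 were past the fold higher in the male pool (8.48% of all genes) and 4 were higher than in e5 on both plates (7.07%). The chaperone *Hspb1* was at 122 and 19 CPM on liver_318s and at 121 and 2.4 CPM on liver_319s, and the co-chaperone *Dnajb1* at 116 and 25.1 CPM and at 268 and 19.2 CPM. In the male pool as a whole they were at 120 and 137 CPM in e3 and higher in e1, at 296 and 172 CPM. Of 18 endothelial transcription factors, 3 were past the fold higher (*Klf4*, *Klf2* and *Erg*) and 0 lower, beside 8.48% and 9.25% of all genes. *Klf2*, a factor induced by flow, was at 991 and 524 CPM on liver_318s and at 1462 and 568 CPM on liver_319s. *Gata4*, which sets sinusoidal identity, was at 451 CPM in male e3 and 352 CPM in e5.

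Several groups had medians near that of all genes in the male pool. Scavenger receptors (13 genes, median -0.11), endocytic and lysosomal proteins (15 genes, -0.10), MHC class I genes (9 genes, -0.24), interferon-stimulated genes (20 genes, -0.13) and ribosomal proteins (77 genes, 0.29) were among them. In the female pool the interferon-stimulated genes had a median of 1.46, with 13 of 20 past the fold higher and 3 lower in the 6 e3 cells, where 15.9% of all genes were higher and 60.3% lower and the median of all genes was -1.91. Angiocrine ligands (12 genes) had 3 past the fold higher and 4 lower (8.48% and 9.25% of all genes). The MHC class II list had 4 of 5 genes lower in the male pool (9.25% of all genes, median -1.57), but a median of 1.65 against e5 within liver_318s and of -0.29 within liver_319s.

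Markers of other liver cells were low in e3. Summed over the macrophage list of 11 genes, male e3 held 89 CPM and female e3 73 CPM, with 1 gene (*Marco*) at 0 in male e3, against 171 CPM in male e5, 1153 CPM in male e8 and 16280 CPM in male immune cells. The 7 of 8 macrophage genes past the fold lower in e3 (9.25% of all genes) stood beside a high level in e8, where *Clec4f*, a Kupffer cell lectin, was at 194 CPM, beside 3.66 CPM in e3 and 18.2 CPM in e5. On liver_318s the macrophage list summed to 63 CPM in e3 and 80.1 CPM in e5. The hepatocyte list summed to 518 CPM in male e3, 751 CPM in e5, 585 CPM in e8 and 14843 CPM in male epithelial cells, with no member at 0 in male e3, and on liver_318s to 506 CPM in e3 and 991 CPM in e5. On liver_319s the macrophage list summed to 270 CPM in e3 and 252 CPM in e5 and the hepatocyte list to 610 and 661 CPM. Both lists were lower in e3 than in e5 on liver_318s, and the macrophage list was slightly higher on liver_319s; the part of such RNA in the other levels was not tested.

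Female e3 cells carried the sinusoidal genes, with lower immediate early levels than male e3. The summed immediate early genes were at 4124 CPM in female e3, beside 4310 CPM in female e5, 2974 CPM in e6 and 6051 CPM in e8. Per cell the medians were 4610, 3487, 1948 and 4390 CPM. *Fos* was at 254 CPM (232 to 278), *Jun* at 296 CPM and *Egr1* at 103 CPM in female e3. On the female plate liver_845s the list summed to 3799 CPM in 3 e3 cells, 3835 CPM in 7 e5 cells and 1817 CPM in 47 e1 cells. Sex, plate and mouse cannot be told apart here.

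By overall profile e3 was most like e5. Over the 11280 genes of the male pool, on the scale log2(CPM + 1), Pearson's r with e3 was 0.87 for e5, 0.77 for e2, 0.76 for e1, 0.75 for e8, 0.74 for e6, 0.68 for e7 and 0.62 for e4. The clusters differ in cells, counts and plates, e4 had 9 cells, and the part of these in the values was not tested. Within liver_318s, r was 0.80 for e5, 0.73 for e1, 0.70 for e2 and 0.65 for e6.

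The 10 rows of male e3 with the highest CPM included *Stab2* and *Dnase1l3* of the sinusoidal markers. Per kilobase of exon, *mt-Rnr2* was at 2729 CPM per kb, *Selenop*, a selenium transport protein, at 2066, *Dnase1l3* at 828, the recycling protein *Ehd3* at 492, *Malat1* at 426, *Stab2* at 367 and the phosphatase *Ptprb* at 303 CPM per kb. The other 3 of the 10 rows with the highest CPM, Rn18s.rs5, *Yam1* and Yam1.1, matched no gene of the annotation used for length. Genes with the largest gap between the ratio on and off liver_318s were mostly detected in few cells: the 10 with at least 50 CPM, led by *Ehbp1l1* (2.34 on and -4.80 off the plate) and *Rftn1* (-0.11 and -6.72), were found in 24.3% to 44.3% of e3 cells, and 38 e3 cells lay off the plate.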

How the data were processed

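The authors counted single-end Smart-seq2 reads per gene and cell, renamed genes to symbols, and removed cells with up to 50000 counts or 1500 genes, at least 12000 genes, at least 10% spike-in or mitochondrial counts, or signs of another cell type; their methods also name a filter on rarely detected genes. The deposited values are raw counts without normalization. The submitters' notes name bcl2fastq, Bowtie, Bowtie2, Subread, featureCounts and Seurat and the builds GRCm38 and mm10, whose versions are not given there. Clusters are those of the authors (pagoda2 on the same cells), and the study removed doublets by a scatter gate at the sort and by the upper gene limit; none were called here. Counts without the 92 spike-ins were summed per cluster, pool and plate and scaled to CPM. No test compared gene levels of e3 with those of other clusters, because each pool is 1 sample; only depth was tested, by an exact paired permutation test over plates. Intervals are exact Poisson (CPM) or binomial (shares) at 95%, and for a share of 0 the limit is 3 counts. Exon lengths are from GENCODE vM21. Alternatives used TMM factors (edgeR 4.0.16) and size factors (DESeq2 1.42.0) in R 4.3.3, and all else ran in Python with numpy and scipy. The ratio script was tested on simulated data. Named genes were up to 15 higher and 15 lower in both plate strata with at least 50 CPM and detection by 1 count in 50% of cells on the higher side, the 10 with the largest plate gap, the 10 most abundant, and members of the gene lists. The comparisons of e3 with e5 within plates were added after the data were seen. The members, gene lists and rules were chosen with earlier results of these data known.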

Additional observations from a re-analysis of the deposited data

Results flagged for a closer look

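Of the 15 highest genes named for the male pool, 9 had log2 ratios past the fold in the opposite direction in the female pool: *Hbegf* (-1.90), *Klf4* (-2.81), *Jund* (-1.29), *Gm11175* (-2.25), *Fosb* (-3.12), *1700123O20Rik* (-3.73), *Vps4b* (-5.42), *Kdm6b* (-1.13) and *Bmp2k* (-3.10). The difference between the pools was not tested. Female e3 is 6 cells, and over all 11280 genes its median ratio to female e5, e6 and e8 was -1.91. Of all genes, 60.3% were past the fold lower in female e3 and 15.9% higher, so the 9 of 15 stand near the share over all genes.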

How the results depend on the processing

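The counts of 956 higher and 1043 lower genes depend on the settings. They were 610 higher at a pseudocount of 5 CPM, 2102 and 1890 without a filter, 399 and 480 with a filter of 20 CPM, 1729 and 2621 without plate liver_318s, 1805 higher on that plate only, 587 higher with both pools together, 2714 and 1694 against e8 only, and 1620 higher without e5. In comparisons added after the data were seen, 2221 were higher against e5 within liver_318s, and 2548 higher and 2657 lower within liver_319s. Each of these counts applied the CPM filter to its own pair of groups. TMM factors gave 827 and 1120, and DESeq2 size factors 689 and 1332. The counts in both plate strata stayed within 1.5 times (275 to 292 lower, 273 to 285 higher). The plate ratio of the immediate early genes outside e3 was 0.74 with at least 10 cells per side, 0.74 without e6 and 0.52 without e5. At 20 counts, *Kit* was found in 70.9% and *Lyve1* in 52.2% of male e3 cells instead of 91.7% and 80%, and the share with both was 73% at 1 count and 18.7% after thinning. Turns of direction over these settings were counted for list medians and genes named by rule with a log2 ratio of at least 1 in size in the male pool. Smaller ratios were not counted. The direction turned for the central-side list against e8 only (0.34), without e6 (0.65) and against e5 within liver_318s (0.22) and liver_319s (2.58), for the MHC class II list within liver_318s (1.65), and for *Tbc1d23* and *Sh3d19* without liver_318s (-3.60 and -1.67) and within liver_319s (-3.79 and -4.52). The median of the immediate early genes in male cells was above 0 under each alternative setting, from 0.52 against e8 only to 3.44 against e5 within liver_319s; against e1 it was 0.31, against e2 0.29, and in the female pool -0.21. The depth differences kept their sign, and the test had a smallest p of 0.5 with the 2 plates that hold 5 cells per side. No cause of these shifts was tested. No paired analysis by replicate number was possible because each pool is 1 sample. Pairing by plate was used in the depth test. With 6 female cells, the female levels are limited by counting and by cell number.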
